A study of Mus musculus with 8 samples.

Results

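Transcripts of the platelet-derived growth factor (PDGF) receptors Pdgfra and Pdgfrb, of the receptor Kit, and of ligands of this receptor family (Pdgfa, Pdgfb, Pdgfc, Pdgfd, Kitl and Csf1) were followed in mouse haemogenic endothelium, the endothelium from which blood cells emerge. The genes were taken by name from a gene count table, which held all 9 among its 41128 genes. All 9 passed the filter on low counts, which left 14179 genes for testing. Pdgfra, Pdgfrb and Kit encode receptor tyrosine kinases of class III, a class that also holds the CSF1 receptor Csf1r and Flt3. PDGF chains act as dimers: the A and B chains are made as precursors that furin-type proteases trim, whereas the C and D chains carry a CUB domain that proteases must remove before the ligand binds a receptor. PDGFRA binds the A, B and C chains, PDGFRB binds mainly B and D, KIT binds the KIT ligand (stem cell factor, Kitl), and CSF1, the macrophage growth factor, binds CSF1R. In vessels, endothelial PDGF-B is known for recruiting pericytes that carry PDGFRB, and KIT is carried by haemogenic endothelium and early blood progenitors.

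The 8 libraries came from C57BL/6 embryonic stem (ES) cells differentiated in culture, and the labels give haemogenic endothelium as the cell type of all of them. There were 2 ES cell lines, labelled Hdac1lox/lox and Hdac2lox/lox, so that cells of every group carried loxP-flanked alleles of a histone deacetylase gene, Hdac1 or Hdac2. Each line was given ETOH (ethanol, EtOH below) or 4oht (4-hydroxytamoxifen, 4OHT), with 2 libraries in each of the 4 groups. No label names a Cre recombinase, the number of clones behind a line, or whether the libraries of a group came from separate cultures, so p-values measure only the spread between these libraries, which may be technical. The question was how 4OHT treatment of each floxed line changed these genes.

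Total counts were 10215792 to 19552380 per library, and 3 counts correspond to 0.15 to 0.287 CPM (counts scaled to library size, with TMM factors). The targeted genes were not called lower with 4OHT in their own lines: Hdac1 was at 5.78 and 5.6 CPM in Hdac1 EtOH and at 6.99 and 7.12 in Hdac1 4OHT, and Hdac2 was at 165 and 151 CPM in Hdac2 EtOH and at 149 and 149 in Hdac2 4OHT (log2 fold change -0.08 ± 0.14, adjusted p = 0.672). A count over the whole gene does not separate exons that recombination would remove, so loss of either gene was not checked and the groups are named as labelled. All 12 endothelial markers had counts in every library, led by Cdh5 (VE-cadherin). Summed erythroid marker levels were 913 and 281 CPM in the Hdac1 EtOH libraries (replicates 1 and 2) and 159 and 422 CPM in the Hdac1 4OHT libraries, so that EtOH replicate 1 and 4OHT replicate 2 of this line stood higher than their partners. Between the 2 libraries of a group, 858 genes with at least 5 CPM differed by 2-fold or more in the Hdac1 EtOH group and 411 in the Hdac1 4OHT group, against 152 and 126 in the Hdac2 EtOH and 4OHT groups. In bulk RNA, fewer cells of a type and less RNA per cell cannot be told apart.

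Levels set between genes were taken as CPM per kilobase of merged exon. On this scale Pdgfb, the endothelial PDGF ligand, had the highest mean level of the 9 genes in all 4 groups, at 41.4 ± 24.3 (SD, n = 2) in Hdac1 EtOH, 54.5 ± 17 in Hdac1 4OHT, 30.8 ± 5.54 in Hdac2 EtOH and 113 ± 18.2 in Hdac2 4OHT. Csf1 and Kit took the next places in each group. In the EtOH groups the levels of Csf1 (15.7 ± 2.71 in the Hdac1 line and 13.6 ± 4.61 in the Hdac2 line, CPM per kilobase) and Kit (16.4 ± 6.22 and 15.8 ± 3.9) overlapped. In Hdac2 4OHT, Csf1 stood at 86 ± 23.3 CPM per kilobase, a range that overlapped that of Pdgfb, and Kit at 10.9 ± 1.42. Pdgfrb and Kitl came next in every group, with group mean levels of 1.81 to 9.62 CPM per kilobase, and their libraries overlapped in each. Pdgfra had the lowest mean level in 3 groups, at 0.213 ± 0.0683, 0.226 ± 0.0424 and 0.35 ± 0.0569 CPM per kilobase in Hdac1 EtOH, Hdac1 4OHT and Hdac2 4OHT. In Hdac2 EtOH, the levels of Pdgfa, Pdgfra and Pdgfd were 0.502 ± 0.407, 0.494 ± 0.379 and 0.381 ± 0.103, and each gene overlapped its neighbour in the order.

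Summed over the 4 PDGF chains, the ligand level was 25.9 and 61.4 CPM per kilobase in Hdac1 EtOH, 70.1 and 45 in Hdac1 4OHT, 39.1 and 29.8 in Hdac2 EtOH, and 114 and 138 in Hdac2 4OHT. Pdgfb made up 88 to 95.3% of this sum in the 8 libraries, so the sum mostly follows that 1 gene. The summed level of the PDGF receptors was 2.31 to 12.8 CPM per kilobase, and Pdgfrb exceeded Pdgfra by 10.8 to 40.3 times within a library.

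**Figure D1:**
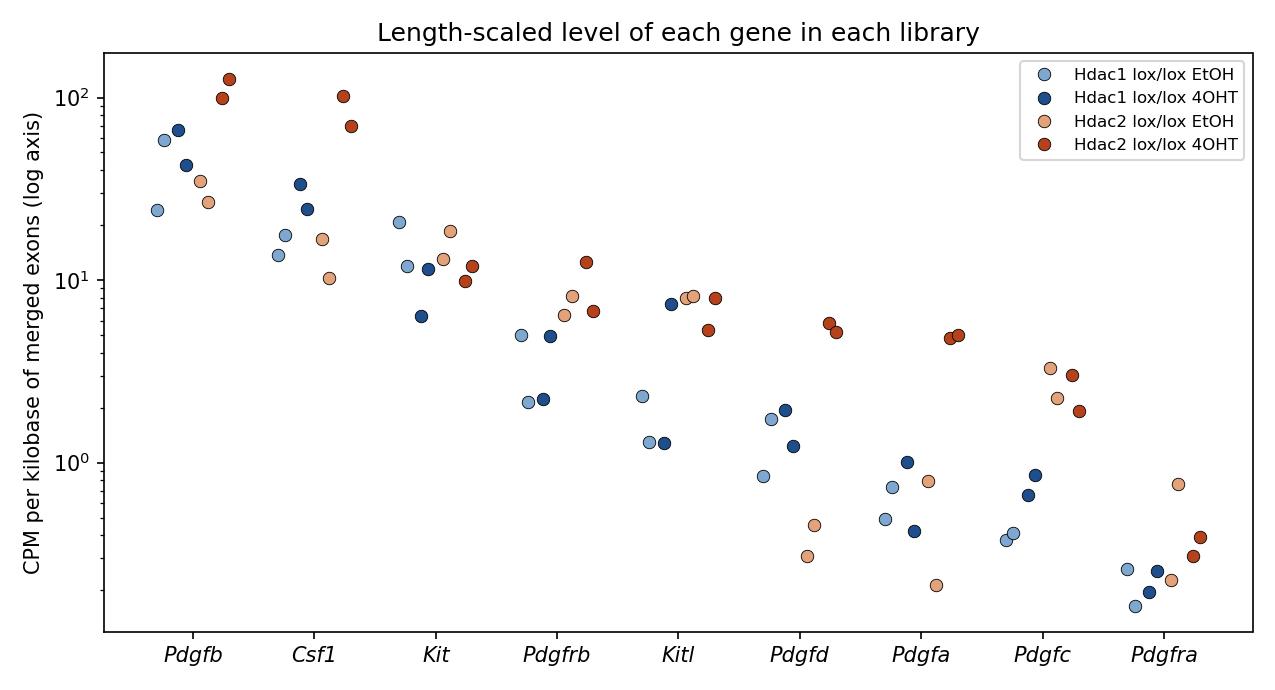
Levels of the 9 genes in CPM per kilobase of merged exon (log axis) in the 4 groups of 2 libraries, with 1 point per library. Pdgfb has the highest mean level in every group, and Pdgfra lies at 0.213 to 0.494 CPM per kilobase as group means.

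In the Hdac2 line, 4OHT against EtOH, 4 of the 6 ligand genes rose: the PDGF chains Pdgfa, Pdgfb and Pdgfd, and Csf1. No receptor gene passed the test in either direction, and neither did Pdgfc and Kitl. Thus 4 of the 9 genes rose and 0 fell, where 36.1% of all 14179 tested genes were called, 18.9% as higher and 17.2% as lower (edgeR's quasi-likelihood test, Benjamini-Hochberg adjusted p under 0.05). The median log2 fold change of the 9 genes was 0.40, beside -0.02 over all tested genes. The libraries did not overlap between EtOH and 4OHT for 6 of the 9 genes (these 4 higher with 4OHT, Kit and Kitl lower), beside 78.3% of all tested genes.

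Pdgfd, the chain that binds PDGFRB once its CUB domain is removed, had the largest fitted fold change of the 9 genes, with an interval that overlaps that of Pdgfa. Without Hdac2 EtOH replicate 1 the order turned, with log2 fold changes of 4.5 for Pdgfa and 3.59 for Pdgfd. In CPM it stood at 0.972 and 1.43 in the Hdac2 EtOH libraries (15 counts in each) and at 18.3 and 16.4 in the Hdac2 4OHT libraries (236 and 185 counts). Every 4OHT library of the line lay above every EtOH library. The log2 fold change was 3.87 ± 0.45 (SE, 95% interval 2.82 to 4.92), a 14.6-fold rise with an adjusted p of 0.00637. The Hdac1 EtOH libraries held 2.67 and 5.5 CPM of Pdgfd and the Hdac1 4OHT libraries 6.12 and 3.87, so these groups overlap, and the log2 fold change was 0.28 ± 0.39 (adjusted p = 0.938).

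Pdgfa, which encodes the chain that forms PDGF-AA, a ligand of PDGFRA, stood at 2.46 and 0.669 CPM in Hdac2 EtOH (38 and 7 counts) and at 15 and 15.6 CPM in Hdac2 4OHT (193 and 176 counts). The EtOH libraries of the line differed from each other by 3.68 times, and both lay below the 4OHT libraries. Its log2 fold change was 3.22 ± 0.59 (95% interval 1.86 to 4.58), a 9.32-fold rise with an adjusted p of 0.0113. Hdac1 EtOH libraries held 1.53 and 2.3 CPM and Hdac1 4OHT libraries 3.14 and 1.31, with a log2 fold change of 0.18 ± 0.58 (adjusted p = 0.975). An opposite-strand non-coding gene, 6330403L08Rik, overlaps Pdgfa and held 75 counts over the 8 libraries against 551 for Pdgfa, and without the strand setting of the counting the reads of these genes cannot be told apart.

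Pdgfb, the chain of the pericyte-recruiting ligand PDGF-BB, was at 145 and 112 CPM in Hdac2 EtOH and at 416 and 523 CPM in Hdac2 4OHT, without overlap. It rose 3.66-fold, with a log2 fold change of 1.87 ± 0.42 (95% interval 0.91 to 2.84) and an adjusted p of 0.0165. Pdgfb was at 101 and 244 CPM in Hdac1 EtOH and at 277 and 177 in Hdac1 4OHT. Those ranges overlap, and the log2 fold change there was 0.40 ± 0.40 (adjusted p = 0.899). Of the PDGF chains, Pdgfb had the smallest fold among those that rose and the largest gain in CPM per kilobase.

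Csf1, the ligand of CSF1R rather than of a PDGF receptor or KIT, was at 88.9 and 54.4 CPM in Hdac2 EtOH and at 541 and 367 CPM in Hdac2 4OHT. Both 4OHT libraries of the line lay above both EtOH libraries. It rose 6.33-fold, with a log2 fold change of 2.66 ± 0.32 (95% interval 1.92 to 3.41) and an adjusted p of 0.00656. Csf1 was at 72.8 and 93 CPM in Hdac1 EtOH and at 178 and 130 in Hdac1 4OHT, again without overlap, but its log2 fold change of 0.89 ± 0.30 had an adjusted p of 0.727 (unadjusted p = 0.0196).

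Pdgfc, the other CUB-domain chain and a ligand of PDGFRA, did not follow the other PDGF chains. It was at 16.8 and 11.6 CPM in Hdac2 EtOH and at 15.3 and 9.78 in Hdac2 4OHT, with a log2 fold change of -0.18 ± 0.30 (95% interval -0.88 to 0.51, adjusted p = 0.648). Its Hdac1 EtOH libraries were at 1.91 and 2.1 CPM and its Hdac1 4OHT libraries at 3.38 and 4.33, groups that do not overlap, with a log2 fold change of 0.94 ± 0.33 (adjusted p = 0.731, unadjusted p = 0.023). The gene thus separated the lines more than it separated the agents. Kitl, the KIT ligand, was at 47.4 and 48.6 CPM in Hdac2 EtOH and at 31.4 and 47.1 CPM in Hdac2 4OHT, with a log2 fold change of -0.29 ± 0.66 (95% interval -1.81 to 1.23, adjusted p = 0.743). Its Hdac1 libraries varied widely, 13.8 and 7.7 CPM in the EtOH group and 7.62 and 43.7 in the 4OHT group, a 5.73-fold gap inside the 4OHT group, with a log2 fold change of 1.27 ± 0.68 (adjusted p = 0.782). Soluble and membrane-bound KIT ligand arise from the same gene by splicing and cleavage, and a count per gene does not separate them.

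**Figure D2:**
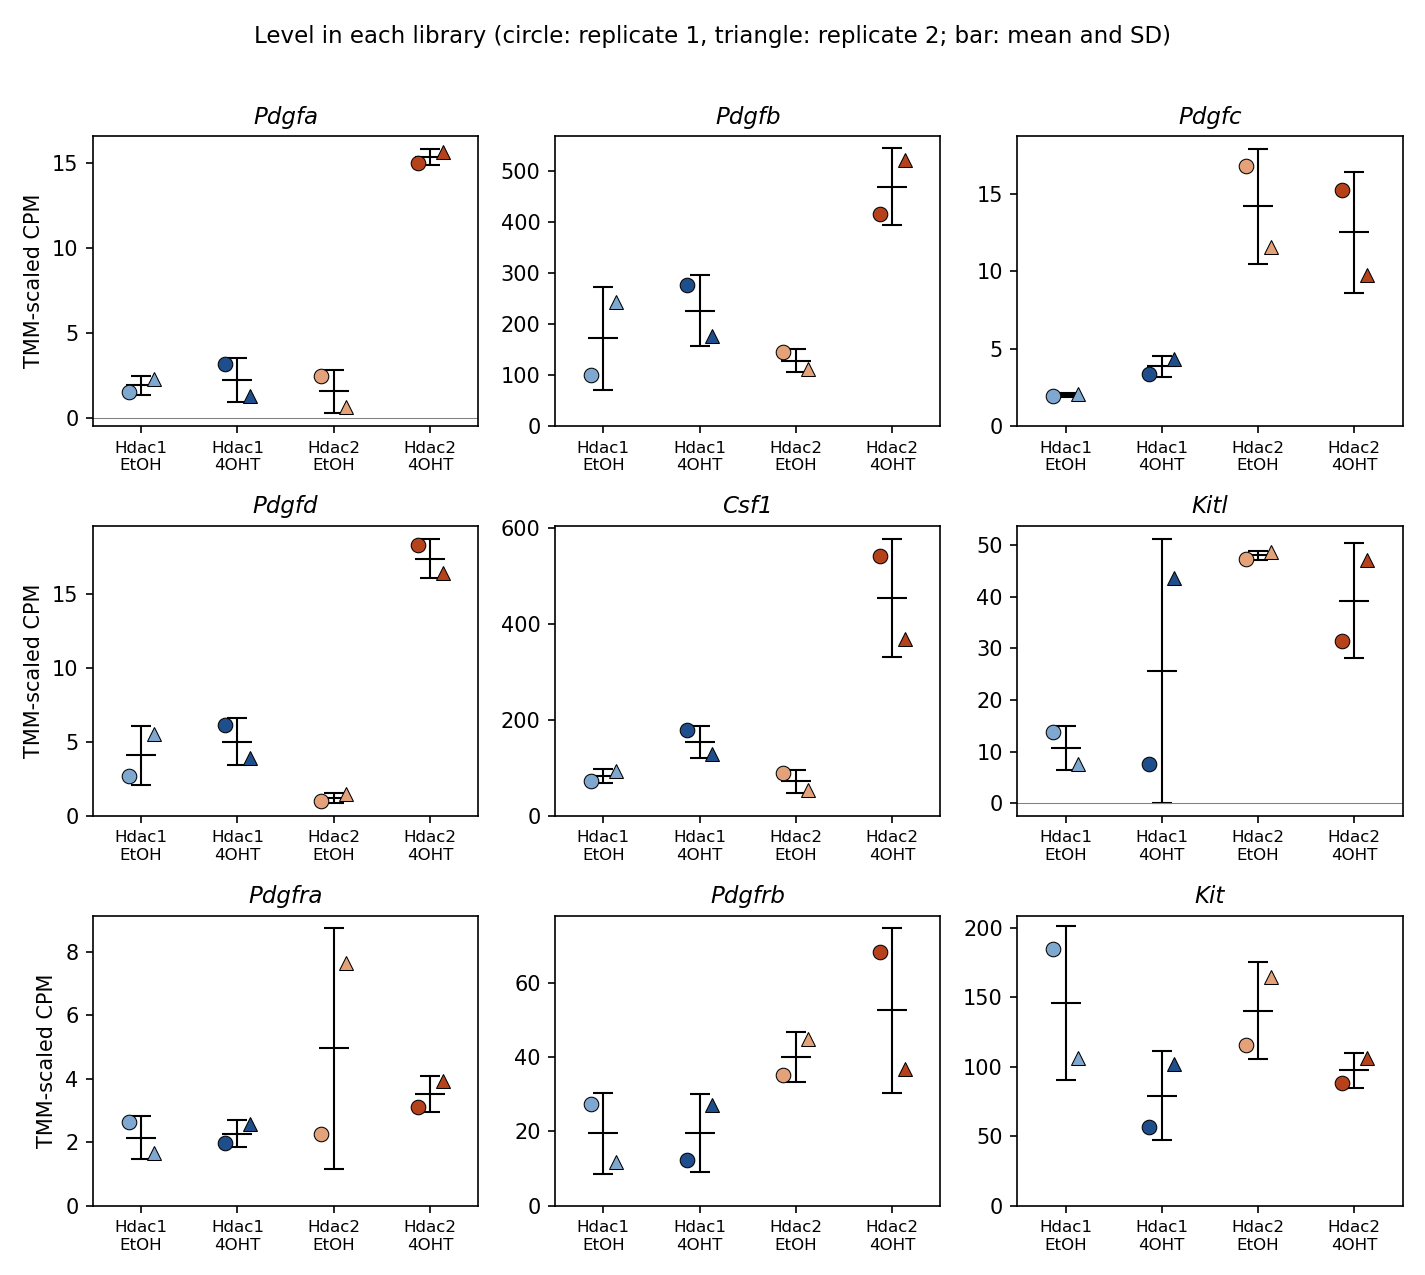
Level of each of the 9 genes in CPM (linear axis, 1 panel per gene) in the 8 libraries, with a point per library and bars for the mean and SD of each group of 2. Pdgfa, Pdgfb, Pdgfd and Csf1 are highest in both Hdac2 4OHT libraries, and Pdgfc is higher in all 4 Hdac2 libraries than in the Hdac1 libraries.

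The 250 bases before the RefSeq start site were read for the genes of this set that have an entry (build GRCm38.p6, 7 of 9 genes matched) to set the starts of ligand genes that rose beside that of a ligand gene that did not. Windows of Csf1 and Pdgfd, which rose, and of Pdgfc, which did not, are printed 5′ to 3′ on the gene's strand. None of the 3 holds an annotated exon base. Capitals mark 4 motifs on either strand. The GC box was searched as GGGCGG. The motif of GATA factors was searched as AGATAA. The TATA box was searched as TATAAA, and the AP-1 motif as TGANTCA. No marked motif overlaps another in these windows.
Csf1, chr3:107760470-107760719, minus strand: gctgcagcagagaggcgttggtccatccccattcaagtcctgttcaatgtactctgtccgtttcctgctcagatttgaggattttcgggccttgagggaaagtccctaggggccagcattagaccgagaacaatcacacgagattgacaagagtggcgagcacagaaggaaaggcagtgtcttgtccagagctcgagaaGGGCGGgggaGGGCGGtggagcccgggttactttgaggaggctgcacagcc
Pdgfd, chr9:6168236-6168485, plus strand: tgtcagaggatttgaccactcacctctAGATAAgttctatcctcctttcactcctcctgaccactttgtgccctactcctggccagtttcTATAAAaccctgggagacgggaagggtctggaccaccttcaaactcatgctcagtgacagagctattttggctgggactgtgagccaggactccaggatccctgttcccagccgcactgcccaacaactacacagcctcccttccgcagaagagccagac
Pdgfc, chr3:81036166-81036415, plus strand: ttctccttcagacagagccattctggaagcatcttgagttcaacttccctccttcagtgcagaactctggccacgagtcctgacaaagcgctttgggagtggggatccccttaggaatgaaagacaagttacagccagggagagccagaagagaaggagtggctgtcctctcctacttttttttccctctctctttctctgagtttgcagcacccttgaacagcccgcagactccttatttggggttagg

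The Csf1 window holds GGGCGG 2 times and has a GC content of 56.4%. In the Pdgfd window (53.6% GC) AGATAA and TATAAA occur 1 time each, and the Pdgfc window (50.8% GC) holds none of the 4 motifs. Of all 32851 windows of the same length, 32.7% hold GGGCGG, 9.99% AGATAA, 12.4% TATAAA and 6.75% TGANTCA, and the median GC content is 52.4%. Among the 7 matched genes, 4 have GGGCGG, 1 AGATAA, 2 TATAAA and 0 TGANTCA in a window. Kitl, a ligand gene that did not rise either, has GGGCGG 3 times and TATAAA 1 time in its window (69.2% GC). Pdgfa, which rose, has GGGCGG 1 and 2 times in its 2 windows (66.4 and 72.4% GC). The windows of Kitl and Pdgfa are not printed because they overlap annotated exons. Pdgfb, which rose as well, has no entry. Among the ligand genes with a window, the motifs do not separate those that rose from those that did not. These matches describe letters and do not mark sites.

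Kit had the highest mean level per kilobase of the receptor genes in every group, and was not called in either line. It was at 116 and 165 CPM in Hdac2 EtOH and at 88.5 and 106 CPM in Hdac2 4OHT, with both 4OHT libraries below both EtOH libraries. Its log2 fold change was -0.53 ± 0.36 (95% interval -1.35 to 0.30, adjusted p = 0.262). Fitted on the 4 libraries of the Hdac2 line alone, the log2 fold change was -0.54 with an adjusted p of 0.0481, so the call on Kit changed with the libraries fitted. Kit was at 185 and 107 CPM in Hdac1 EtOH and at 56.5 and 102 in Hdac1 4OHT, also without overlap, with a log2 fold change of -0.88 ± 0.36 (adjusted p = 0.733, unadjusted p = 0.0398).

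Pdgfrb, the receptor of pericytes, was at 35.4 and 44.9 CPM in Hdac2 EtOH and at 68.4 and 37 CPM in Hdac2 4OHT, groups that overlap. The log2 fold change was 0.40 ± 0.50 (95% interval -0.76 to 1.55, adjusted p = 0.545). Hdac1 EtOH libraries had 27.3 and 11.8 CPM of Pdgfrb and Hdac1 4OHT libraries 12.2 and 27.1, so that EtOH replicate 1 and 4OHT replicate 2 nearly coincided, as did the other two libraries, and the log2 fold change was 0.02 ± 0.50 (adjusted p = 0.999). Pdgfra, the receptor that marks early mesoderm and primitive endoderm, was at 1.65 to 7.64 CPM in the 8 libraries. Hdac2 EtOH libraries had 2.27 and 7.64 CPM of Pdgfra and Hdac2 4OHT libraries 3.1 and 3.91, a log2 fold change of -0.48 ± 0.55 (95% interval -1.76 to 0.81, adjusted p = 0.512). The intervals of Pdgfra and Pdgfrb leave room for changes of more than 1 log2 unit, so equal receptor levels with and without 4OHT were not shown.

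The libraries of the Hdac1 line fell into the same arrangement for these genes other than Pdgfc. EtOH replicate 1 and 4OHT replicate 2 had the lower Pdgfa, Pdgfb, Pdgfd and Csf1 and the higher Pdgfra, Pdgfrb, Kit and Kitl of their groups, and also the higher summed erythroid markers given above. Their summed endothelial marker levels were the lower of their groups, 4008 against 5648 CPM with EtOH and 4793 against 6115 CPM with 4OHT. The part of cell composition in these values was not tested.

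In the Hdac1 line 0 of the 9 genes were called, as were 0% of all tested genes by edgeR's quasi-likelihood test. At an unadjusted p under 0.05, 947 genes passed over the whole table, and DESeq2 called 32 genes, none of them among the 9. The libraries did not overlap for 3 of the 9 genes (Pdgfc and Csf1 higher with 4OHT, Kit lower), beside 31.2% of all tested genes. The median log2 fold change of the 9 was 0.28, beside -0.02 over all tested genes. The rise of a gene in one line and the absence of a call in the other do not show that the lines differ, so the difference was tested itself.

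That difference, the log2 fold change of the Hdac2 line minus that of the Hdac1 line, was called for 0 of the 9 genes, beside 0.0282% of all tested genes. It was 3.60 ± 0.60 for Pdgfd (SE, adjusted p = 0.0648), 3.04 ± 0.82 for Pdgfa (adjusted p = 0.0896), 1.77 ± 0.43 for Csf1 (adjusted p = 0.0833) and 1.48 ± 0.57 for Pdgfb (adjusted p = 0.151). Without Hdac2 EtOH replicate 1 it was 4.31 for Pdgfa and 3.31 for Pdgfd. DESeq2 called Pdgfd (adjusted p = 1.73e-05), Csf1 (0.00254) and Pdgfa (0.00622), and edgeR without the low-count filter called the same 3 genes (adjusted p = 0.000268, 0.0149 and 0.036). Leaving out replicate 1 of Hdac1 EtOH also brought these genes and Pdgfb past the threshold (adjusted p = 0.00869 for Pdgfd, 0.0205 for Csf1, 0.0294 for Pdgfa and 0.014 for Pdgfb). The difference was negative for Kitl (-1.56 ± 0.94, adjusted p = 0.298) and Pdgfc (-1.13 ± 0.45, adjusted p = 0.157), and lay between -0.57 and 0.38 for the receptor genes.

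**Figure D3:**
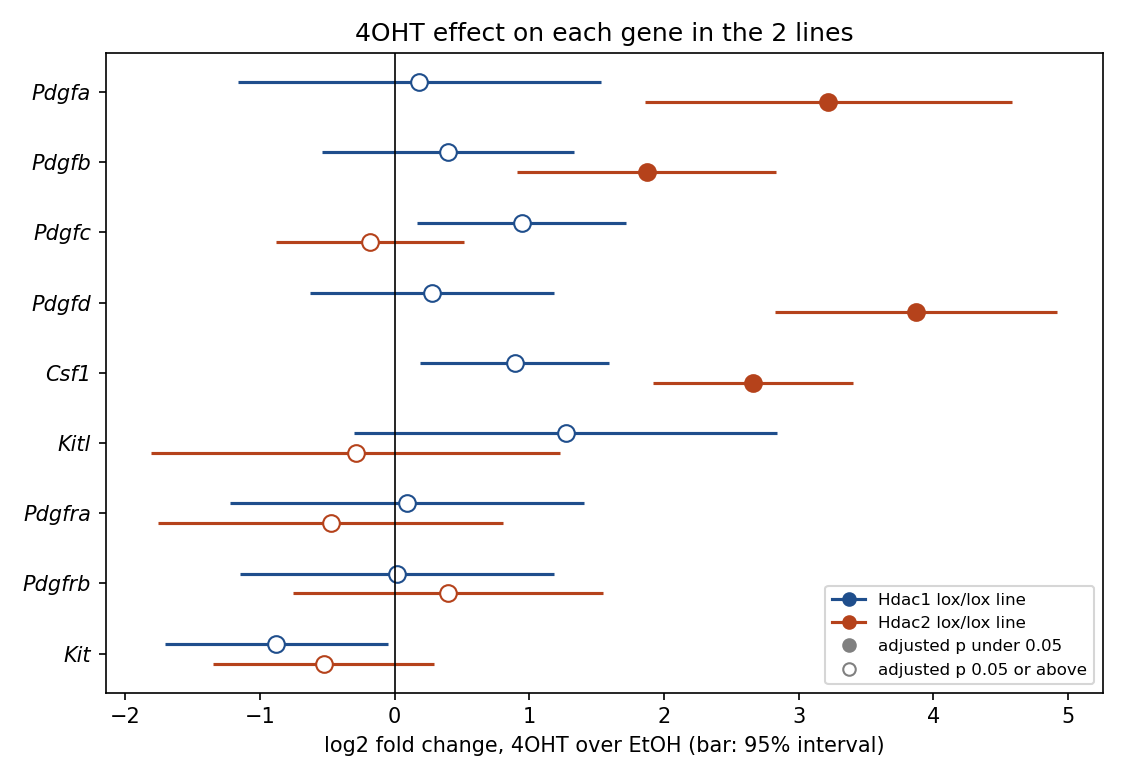
Log2 fold change of 4OHT against EtOH with its 95% interval for each of the 9 genes in the Hdac1 line and the Hdac2 line (edgeR's quasi-likelihood fit over 8 libraries). Only Pdgfa, Pdgfb, Pdgfd and Csf1 in the Hdac2 line passed the adjusted threshold, and the intervals of both receptor genes of the PDGF family include 0 in each line.

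Leaving out a library of the Hdac2 line ended calls, while the 4 fold changes kept their direction. Without its EtOH replicate 1, Csf1 alone was called, and without EtOH replicate 2 none was, with adjusted p of 0.0676 for Csf1, 0.0672 for Pdgfd, 0.0752 for Pdgfa and 0.0991 for Pdgfb, where 0 genes of the whole table were called and 5112 had an unadjusted p under 0.05. Pdgfd and Csf1 were still called without either 4OHT replicate, and Pdgfa (adjusted p = 0.0521 and 0.0725) and Pdgfb (0.0593 and 0.0948) were not. The log2 fold changes stayed between 2.63 and 4.5 for Pdgfa, 1.7 and 2.07 for Pdgfb, 3.59 and 4.15 for Pdgfd, and 2.36 and 3.06 for Csf1. For a group left with 1 library, the fit takes its spread from the other groups. Scaling by the upper quartile or by library size moved the median of all genes in this comparison from -0.02 to -0.15 and -0.14, and the same 4 genes were called higher under every scaling.

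The lines were also compared with the same agent. These comparisons share libraries with those above. With EtOH, 2 of the 9 genes were called, 1 in each direction, beside 9.33% of all tested genes, 2.91% as higher and 6.42% as lower in the Hdac2 line. All calls split into 412 higher and 911 lower (315 and 1242 when scaled by library size alone). The libraries did not overlap for 4 of the 9 genes (Pdgfc, Pdgfrb and Kitl higher in the Hdac2 line, Pdgfd lower), beside 60.1% of all tested genes. Pdgfc was 7.07-fold higher in Hdac2 EtOH than in Hdac1 EtOH (14.2 ± 3.75 against 2.01 ± 0.14 CPM, SD, n = 2), a log2 difference of 2.82 ± 0.33 with an adjusted p of 0.0138. This call was lost without either Hdac2 EtOH library (adjusted p = 0.171 and 0.06). Pdgfd was 3.46-fold lower (1.2 ± 0.33 against 4.09 ± 2 CPM), a log2 difference of -1.79 ± 0.45 with an adjusted p of 0.0486. That value lay just inside the threshold, and limma-voom (adjusted p = 0.0798), a fit of the 4 EtOH libraries alone (0.102) and the fits without Hdac1 EtOH replicate 2 (0.169), either Hdac2 EtOH library (0.283 and 0.136) or either Hdac2 4OHT library (0.0928 and 0.0924) did not call it. Kitl was at 48 ± 0.87 CPM in Hdac2 EtOH and 10.7 ± 4.28 in Hdac1 EtOH, a log2 difference of 2.16 ± 0.69 with an adjusted p of 0.0789. It was called in 4 of 16 alternative fits, DESeq2 among them (adjusted p = 0.00449).

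With 4OHT, 4 of the 9 genes were called, all higher in the Hdac2 line, beside 8.02% of all tested genes, 3.75% as higher and 4.27% as lower. All calls split into 532 higher and 605 lower (434 and 820 when scaled by library size alone). The libraries did not overlap for 7 of the 9 genes, all but Kit and Kitl, beside 62.3% of all tested genes. Pdgfa was 6.99-fold higher (15.3 ± 0.47 against 2.23 ± 1.29 CPM), with an adjusted p of 0.0318. Pdgfd was 3.5-fold higher (17.4 ± 1.33 against 5 ± 1.59 CPM, adjusted p = 0.0361), so its order between the lines was opposite to that with EtOH. Pdgfc was 3.24-fold higher (12.5 ± 3.9 against 3.85 ± 0.67 CPM, adjusted p = 0.0274) and Csf1 2.96-fold higher (454 ± 123 against 154 ± 34 CPM, adjusted p = 0.0292). Pdgfrb was at 52.7 ± 22.3 against 19.6 ± 10.5 CPM (adjusted p = 0.122) and Pdgfb at 470 ± 75.7 against 227 ± 70.6 CPM (adjusted p = 0.145). None of the 4 calls held when any 1 of the 4OHT libraries was left out: the adjusted p of Csf1 was then 0.0689 to 0.161, that of Pdgfa 0.0641 to 0.18, that of Pdgfc 0.0936 to 0.156 and that of Pdgfd 0.074 to 0.184. Without Hdac2 EtOH replicate 1 or 2, Pdgfd was not called either (adjusted p = 0.0638 and 0.064).

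The other receptor and ligands of class III were low. Csf1r, the receptor of CSF1, was at 1.81 and 0.478 CPM in Hdac2 EtOH and at 11.6 and 6.58 CPM in Hdac2 4OHT. The fit gave Csf1r a log2 fold change of 2.92 ± 0.62 and an adjusted p of 0.0149. Csf1r passed the low-count filter only through the Hdac2 4OHT libraries, so this call is not evidence beside the rise of its ligand Csf1. Hdac1 libraries held Csf1r at 0.0546 to 0.456 CPM. Flt3l, the FLT3 ligand, had a mean of 2.38 ± 0.67 CPM in Hdac2 EtOH and of 1.2 ± 0.06 in Hdac2 4OHT (adjusted p = 0.0759). The genes Flt3 and Il34, the receptor of FLT3 ligand and a further ligand of CSF1R, were at most at group means of 0.0776 and 0.107 CPM and were not tested.

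Genes that process or bind PDGF ligands were among those that rose in the Hdac2 line. Of 13 tested genes of ligand processing, binding and co-reception (14 listed), 6 rose and 0 fell, beside 18.9% of all tested genes called higher and 17.2% lower, and the median log2 fold change was 1.00, beside -0.02 over all tested genes. Furin, a convertase that trims PDGF-A and PDGF-B precursors, rose from 75.9 ± 10.1 to 377 ± 40.9 CPM (log2 fold change 2.31 ± 0.37, adjusted p = 0.00893). Thbs1, which encodes the matrix protein thrombospondin-1, rose from 135 ± 43.1 to 1300 ± 219 CPM (3.27 ± 0.61, adjusted p = 0.0117). Lrp1, an endocytic co-receptor of PDGFRB, rose from 52.9 ± 14.5 to 217 ± 64.9 CPM (2.04 ± 0.41, adjusted p = 0.0136). Plau, urokinase, which can activate PDGF-D, was among the other genes that rose (17 ± 9.82 to 62 ± 14.9 CPM, adjusted p = 0.0259). None of these 13 was called in the Hdac1 line, with a median log2 fold change of 0.67 and all 13 values above 0.

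Of 29 genes that act next to the receptors, 8 rose and 0 fell in the Hdac2 line, beside 36.1% of all tested genes called (18.9% higher, 17.2% lower), and the median log2 fold change was 0.33. The 4 with the smallest adjusted p were the kinase Jak2 (58.8 ± 0.56 to 112 ± 6 CPM, adjusted p = 0.0122), the transcription factor Stat3 (121 ± 3.32 to 209 ± 6.49 CPM, 0.0143), the docking protein Gab2 (54.9 ± 0.67 to 116 ± 14 CPM, 0.0147) and the PI3-kinase subunit Pik3cb (49 ± 4.55 to 97.6 ± 5.01 CPM, 0.0162). Their rises were 0.79 to 1.07 on the log2 scale, smaller than those of the ligands. Of 14 genes of the downstream kinase cascades, 1 rose, the kinase gene Braf (34 ± 0.48 to 84.5 ± 13.3 CPM, adjusted p = 0.0303), and 0 fell, with a median of 0.11. Neither list had a called gene in the Hdac1 line, and the medians were 0.03 and 0.09.

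Of 15 tested negative regulators of the receptors, 4 rose and 3 fell in the Hdac2 line, beside 18.9% of all tested genes higher and 17.2% lower, with a median log2 fold change of -0.16. The ubiquitin ligase genes Cbl (7.34 ± 0.57 to 38.5 ± 6.5 CPM, adjusted p = 0.0279) and Cblb (34.2 ± 0.18 to 85.9 ± 1.54 CPM, 0.0232), whose products mark activated receptors for degradation, rose. Sla2, an adaptor that works with CBL, fell from 33 ± 2.05 to 3.1 ± 0.23 CPM (log2 fold change -3.41 ± 0.43, adjusted p = 0.00741), and the phosphatase gene Acp1 fell from 15.4 ± 1.6 to 9.03 ± 0.84 CPM (0.0326). None of the 15 was called in the Hdac1 line, with a median of 0.01.

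Of 12 tested transcription factors known to act on Kit, 0 rose and 4 fell in the Hdac2 line, where Kit itself was not called. This count stands beside 36.1% of all tested genes called and 17.2% called lower, so calls were about as frequent as over the whole table. Their median log2 fold change was -0.33. The 4 were Tal1 (335 ± 56.8 to 147 ± 7.54 CPM, adjusted p = 0.00868), Lmo2 (285 ± 37.7 to 70.7 ± 5.59 CPM, 0.00893), Myb (33.9 ± 8.95 to 10.3 ± 0.63 CPM, 0.0116) and Gata1 (64.5 ± 7.63 to 6.39 ± 0.62 CPM, 0.0148). All 4 are regulators of blood cell formation. None of the 12 was called in the Hdac1 line, and the median was -0.46.

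**Figure D4:**
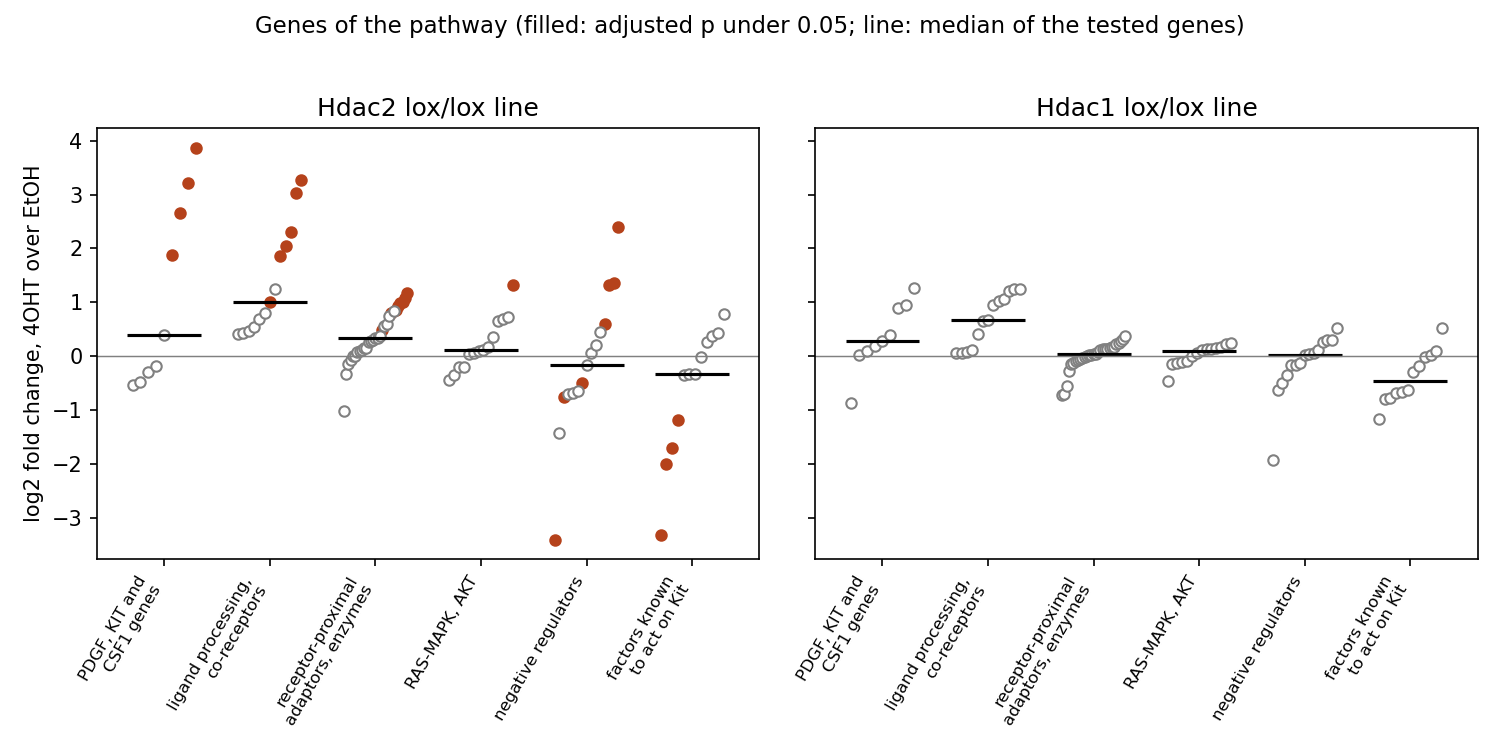
Log2 fold change of 4OHT against EtOH for every tested gene of the lists (1 point per gene, 1 column per list) in the Hdac2 line (left) and the Hdac1 line (right), with called genes filled and a line at each list's median. The ligand-handling genes lie above 0 in both lines, and filled points occur in the Hdac2 line only.

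Markers of other cells in such cultures differed between the agents in the Hdac2 line as well. The counts of calls below stand beside 18.9% of all tested genes called higher and 17.2% called lower in this comparison. Summed levels of 12 endothelial markers were 3340 to 3510 CPM with EtOH and 6306 to 8435 CPM with 4OHT. Of the 12, 6 rose and 0 fell, with the leading gene Cdh5 going from 765 ± 29.2 to 2680 ± 484 CPM. Cldn5 (99.9 ± 10.4 to 44.3 ± 17.5 CPM) and Sox18 (255 ± 19.1 to 217 ± 60.4 CPM) had lower means with 4OHT and were not called. The summed levels of 10 erythroid markers went from 1582 to 1684 CPM with EtOH to 219 to 344 CPM with 4OHT, and 5 fell and 0 rose. For 12 blood markers the sums were 765 to 820 and 648 to 656 CPM, and 5 fell and 2 were called higher, Cd44 and Ptprc. Ptprc (0.5 to 3.56 CPM) passed the low-count filter only through Hdac2 4OHT, so its call is not evidence about the list. The part of these shifts in the changes of Pdgfa, Pdgfb, Pdgfd and Csf1 was not tested.

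Cells known to carry the receptors were looked at in the same way. The 12 pericyte and smooth muscle markers summed to 1484 to 2179 CPM with EtOH and 4360 to 6431 CPM with 4OHT, mostly through Acta2. Of 10 tested, 6 rose (Mcam, Anpep, Acta2, Tagln, Cnn1 and Myh11) and 0 fell, beside 18.9% of all tested genes called higher and 17.2% lower. Rgs5 (7.02 ± 5.34 to 2.87 ± 0.33 CPM) and Des (22.1 ± 9.02 to 11.6 ± 5.04 CPM) had lower means with 4OHT and were not called. Kcnj8 was at 0 in both 4OHT libraries. Pdgfrb, which such cells express, was not called in that comparison. The 13 macrophage markers, of which Csf1r is 1, summed to 30 to 47.6 CPM with EtOH and 63.8 to 68.5 CPM with 4OHT. In Hdac1 EtOH replicate 1 the sum was 72.4 CPM. C1qa was at 0 in all 4 libraries of the Hdac2 line, and C1qc and Aif1 were at 0 in both of its EtOH libraries. Mrc1, the macrophage marker with the highest mean level, had a lower mean with 4OHT (28 ± 18.2 to 15.4 ± 5.34 CPM) and was not called. Of 10 tested, 8 were called higher, but C1qb, C1qc, Ctss and Emr1 were at group means of at most 0.194 CPM outside Hdac2 4OHT. These genes, and Csf1r and Cx3cr1 as well, passed the low-count filter only through that group, so the count is not evidence about the list. Mast cell markers, beside Kit, summed to 1.53 to 2.14 and 3.91 to 7.37 CPM, with Tpsb2, Tpsab1 and Cma1 at 0 with EtOH. Of 3 tested, 2 were called higher, Cpa3 and Cma1, the latter at 0 in the other groups. Both likewise passed the filter only through Hdac2 4OHT, so this count is not evidence about the list either. Beside Pdgfra, the 10 early mesoderm markers summed to 11.6 to 13.2 and 21.9 to 22.3 CPM (0 of 3 tested rose and 1 fell, with Msgn1 at 0 in all 8 libraries). The higher mesoderm sum with 4OHT came through Foxc2 (group means 1.93 to 18.4 CPM), which was not called. Lower means with 4OHT were found for Tcf15, the gene that fell (7.3 to 2.09 CPM), and Isl1 (2.3 to 0.938 CPM, not called). The 10 primitive endoderm markers summed to 143 to 163 and 414 to 442 CPM (6 of 8 tested rose, with Ttr and Amn at 0 with EtOH). The part of these cells in the values of the receptors was not tested.

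For each of the 9 genes the 2 most alike of 9902 other genes with at least 5 CPM (9903 for Pdgfra) were taken by Pearson r of log2 CPM over the 8 libraries. These values describe libraries that share groups and carry no test. The genes most alike Pdgfa were Stx11 (0.987) and Plscr2 (0.985), those of Pdgfb were Ctbp2 (0.997) and Sh3tc1 (0.993), those of Pdgfd were Igf1r (0.996) and Ghr (0.993), and those of Csf1 were Myl12a (0.988) and Pcx (0.987). Pdgfc was most alike Actr3 (0.984) and Jkamp (0.983), and Kitl most alike Cxx1a (0.973) and Arhgef3 (0.97). Among the receptor genes, Pdgfrb was most alike Loxl1 (0.983) and Repin1 (0.972), Kit most alike Susd1 (0.962) and Blvra (0.959), and Pdgfra most alike Stim1 (0.929) and Cdh11 (0.9).

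In mm10 coordinates of the deposited table, Pdgfra (chr5:75152291-75198204) and Kit (chr5:75574916-75656722) lie on the plus strand of the same chromosome, with Pdgfa on the minus strand of it at chr5:138976014-138997370. Pdgfc lies at chr3:81036416-81214040 (plus) and Csf1 at chr3:107741048-107760469 (minus). Pdgfd is at chr9:6168612-6378843 (plus), Pdgfb at chr15:79995900-80014808 (minus), Kitl at chr10:100015630-100100413 (plus) and Pdgfrb at chr18:61045150-61085061 (plus). Genes that overlap Pdgfb, Pdgfc, Pdgfd and Pdgfra (Mir7213, Gm16000, Ddi1 and Mir7025) held 0 counts, and no gene of the table overlaps Pdgfrb, Kit, Kitl or Csf1.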

How the data were processed

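The 9 genes, the gene lists and the comparisons were chosen with earlier results of these data known. The authors deposited a table of raw read counts in whole numbers, with 41128 genes and 8 libraries. Per the labels' protocols, 200 ng of total RNA went into a strand-specific kit with 15 amplification cycles. The submitters' processing notes name Bowtie2 2.2.1 and the build mm10, edgeR 3.8.5 under R 3.1.0, as well as SAMtools 0.1.19 and bcl2fastq 2.17.1.14. Not given in the sources used here are the counter, its annotation, its strand setting and its handling of reads with several matches.

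Groups came from the sample titles. The filter filterByExpr left 14179 genes with 99.9% of counts. Libraries were scaled by TMM, and edgeR 4.0.16 (R 4.3.3) fitted a robust quasi-likelihood model with a mean per group to all 8 libraries, so that the groups share their estimate of spread. Benjamini-Hochberg adjustment ran over all tested genes of a comparison at 0.05. Standard errors came from the F statistic, and intervals are 95%. The test was checked on simulated counts that had the same spread in every gene and group. Spread differed between the groups of these libraries, so that check does not cover it. Log2 CPM for likeness used a prior count of 2. Exon lengths came from GENCODE M21 (GRCm38), which held 40254 of the table's identifiers and the same span for 5 of the 9 genes.

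Alternatives were other scalings, no filter, DESeq2 1.42.0, limma-voom (limma 3.58.1), a replicate block, a fit of the compared libraries alone, and leaving out each library. Named genes were the 9 genes, Hdac1 and Hdac2, the class III relatives and the 2 most alike genes. Of each pathway list, up to 4 called genes with the smallest adjusted p in the Hdac2 line were named (up to 2 in the Hdac1 line, where none was called). Of the marker lists, genes at 0 were named and, for some lists only, the leading gene. Plau and the marker genes named for a change or for the filter were named after their values were seen. A gene that this rule names is not reported here.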

Additional observations from a re-analysis of the deposited data

How the results depend on the processing

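In the Hdac2 line, 4OHT against EtOH, 4 genes were called under every scaling, without the filter, with DESeq2, limma-voom and the replicate block, and 5 (with Kit) in the fit of that line alone. Leaving out a library gave 0 to 4 calls. The Hdac1 line gave 0 calls among the 9 genes under every alternative. The difference between the lines gave 3 calls without the filter and 3 with DESeq2, and 0 to 4 when a library was left out. With EtOH, 2 calls became 1 with limma-voom and 3 (with Kitl) with DESeq2, and 0 to 3 when a library was left out. With 4OHT, 4 calls became 5 with DESeq2 (with Pdgfrb) and 5 in a fit of those libraries alone (with Pdgfb), and 0 to 5 when a library was left out. The cause was not tested.

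The labels number the libraries 1 and 2 in each group. The correlation of the deviations of same-numbered libraries was -0.688 in the Hdac1 line and 0.264 in the Hdac2 line, so the numbers are taken only as names. With the replicate block, 4 genes were called in the Hdac2 line, 1 with EtOH (Pdgfc), 0 with 4OHT, 0 in the Hdac1 line and 0 for the difference, and over all genes 3624, 184, 223, 0 and 0.

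Over all genes, 5113 calls in the Hdac2 line became 0 to 6422 when a library was left out, 4 calls of the difference became 0 to 3740 (1765 with DESeq2, 1187 without the filter, 11 by library size, 1 with limma-voom), 1323 calls with EtOH became 1 to 3871 (2776 with DESeq2, 2064 without the filter, 141 in those libraries alone) and 1137 with 4OHT became 0 to 2276 (2023 with DESeq2, 1805 without the filter). In the Hdac1 line, 0 calls became 32 with DESeq2 and 4 without the filter.

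The reversals were all of values that were not called. In the Hdac1 line, Pdgfrb was -5.47e-05 (log2) by upper quartile and -0.0277 by library size, and Kit with EtOH was 0.0139 by upper quartile. Leaving out a library gave log2 ranges in the Hdac2 line of -0.539 to 0.118 (Pdgfc), -1.12 to 0.627 (Pdgfra) and -0.114 to 0.774 (Pdgfrb). Those in the Hdac1 line were -0.549 to 0.709 (Pdgfa), -0.103 to 1.16 (Pdgfb), -0.149 to 0.881 (Pdgfd), -0.208 to 0.462 (Pdgfra), -0.679 to 0.749 (Pdgfrb) and -0.491 to 2.03 (Kitl). For the difference they were -0.351 to 1.08 (Pdgfrb), -0.102 to 0.841 (Kit), -2.32 to 0.202 (Kitl) and -1.22 to 0.532 (Pdgfra). With EtOH they were -0.403 to 0.394 (Kit), -1.51 to 0.354 (Pdgfa), -0.928 to 0.343 (Pdgfb) and -0.608 to 0.0949 (Csf1), and with 4OHT -0.0677 to 0.784 (Kit) and -0.156 to 2.36 (Kitl). Depth limits Pdgfa, Pdgfd, Pdgfc and Pdgfra most, with 7 to 38 counts for Pdgfa and 15 for Pdgfd in the Hdac2 EtOH libraries.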
